A study of Homo sapiens with 6 samples.

Results

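The genes described here are 10 members of the MYC, MAX, MXD and TXNIP network, chosen by name as MYC, MAX, MXD1, MXD3, MXD4, MXI1, MNT, MLXIP, TXNIP and ARRDC4. All 10 were among the 20683 gene symbols counted, and 9 had enough counts to be tested. The exception was ARRDC4. Messenger RNA was counted in HT-1080, an established human fibrosarcoma cell line, with 3 libraries after 4 h with a compound described as an inhibitor of the kinase IRAK4 and 3 libraries after 4 h in 0.1% DMSO. The labels name the compound only as SLV-8472-01 and give 5 mM as its dose. Whether this was the concentration on the cells is not stated, and the unit could not be checked. The design describes biological replicates of this 1 line without naming separate cultures, so p-values measure the spread between these libraries.

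MYC is a transcription factor that binds DNA only as a dimer with MAX, at a short sequence called the E-box, and activates genes of ribosome production, metabolism and growth. MXD1, MXD3, MXD4, MXI1 (also called MXD2) and MNT compete for MAX, bind the same sequence and repress through SIN3 and histone deacetylases. MLXIP, better known as MondoA, pairs with MLX in place of MAX, senses sugar phosphates made from glucose, and drives TXNIP and ARRDC4. These encode alpha-arrestins that lower glucose uptake. TXNIP protein also binds thioredoxin.

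Library totals ran from 7644478 to 11427779 counts with the inhibitor and from 12003104 to 15336351 with DMSO. Of 8 mesenchymal markers, all had counts, and their summed level was 10700 to 13200 CPM with the inhibitor and 9620 to 10600 CPM with DMSO. CPM are counts scaled to 1000000 per library, with TMM scaling between libraries. Of these markers, THY1 had 3 counts in all. Markers of epithelial, leukocyte and endothelial cells summed to at most 1.85 CPM each in any library, with CDH1, KRT20, PTPRC, CD3E and CLDN5 at 0 counts. Of 11391 genes tested, 2298 passed an adjusted p under 0.05 in edgeR's quasi-likelihood test (1405 without DMSO replicate 2), and the words rose and fell below refer to that threshold. The panel amplifies a part of each transcript, so levels of different genes were not compared, and a change of an isoform cannot be told from a change of the whole mRNA.

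The sequences below show where the network's own binding letters lie upstream of the 4 members that hold a match. Promoter windows of 250 bases before to 50 after an annotated start were taken from RefSeq (GRCh38.p14), in which 9 of the 10 members matched, with 13 windows. MYC was the member without a window, so its promoter was not searched. The E-box was searched as CACGTG, which reads alike on both strands. The paired element, 2 E-box-like pieces of 6 bases with 5 bases between them as bound by MondoA and its relatives with MLX, was searched as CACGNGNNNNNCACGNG on both strands. An E-box can itself be part of the paired element, but no member's window held both. The 250 bases before the start are printed 5′ to 3′ on the gene's strand, with the matches in capitals.
TXNIP, minus strand, chr1:145996580-145996829: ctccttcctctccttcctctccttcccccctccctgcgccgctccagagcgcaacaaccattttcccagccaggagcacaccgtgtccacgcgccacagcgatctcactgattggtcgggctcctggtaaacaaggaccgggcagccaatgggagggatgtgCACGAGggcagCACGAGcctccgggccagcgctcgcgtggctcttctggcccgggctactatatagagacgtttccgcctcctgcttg
ARRDC4, plus strand, chr15:97960453-97960702: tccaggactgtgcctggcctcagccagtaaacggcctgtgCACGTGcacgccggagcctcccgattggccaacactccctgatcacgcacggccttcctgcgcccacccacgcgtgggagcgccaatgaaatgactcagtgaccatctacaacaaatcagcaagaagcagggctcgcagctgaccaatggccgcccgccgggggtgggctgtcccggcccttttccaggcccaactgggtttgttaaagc
MXD4, minus strand, chr4:2262110-2262359: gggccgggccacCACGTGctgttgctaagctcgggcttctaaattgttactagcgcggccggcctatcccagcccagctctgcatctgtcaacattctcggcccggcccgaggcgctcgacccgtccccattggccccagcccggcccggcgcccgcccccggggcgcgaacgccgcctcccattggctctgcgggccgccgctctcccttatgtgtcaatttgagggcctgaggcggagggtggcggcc
MNT, minus strand, chr17:2401061-2401310: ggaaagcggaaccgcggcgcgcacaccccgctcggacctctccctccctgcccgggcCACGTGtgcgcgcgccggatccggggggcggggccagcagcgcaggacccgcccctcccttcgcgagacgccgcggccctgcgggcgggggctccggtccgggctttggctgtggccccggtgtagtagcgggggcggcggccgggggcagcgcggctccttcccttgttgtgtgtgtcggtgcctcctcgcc

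The paired element of TXNIP began 88 bases before the start, and such an element was found in 20 of all 35116 windows (0.057%). The E-box began 238 bases before the start of MXD4, 210 before that of ARRDC4 and 193 before that of MNT. Of all windows, 2548 (7.26%) held an E-box. Counted by gene, 3 of the 9 members with a window held an E-box (33.3%). The share was 8.77% of all genes with a window and 12.9% of the tested ones. The 9 members include ARRDC4, which held an E-box but was not among the tested genes. The paired element was held by 1 member, TXNIP (11.1%), against 16 of 8918 tested genes with a window (0.179%). TXNIP was chosen by name and is a gene that MondoA drives, and the element searched is one that MondoA binds. The match was therefore not independent of the choice of members, and these shares of the paired element cannot show enrichment. A match describes the letters in the window and not binding.

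**Figure D1:**
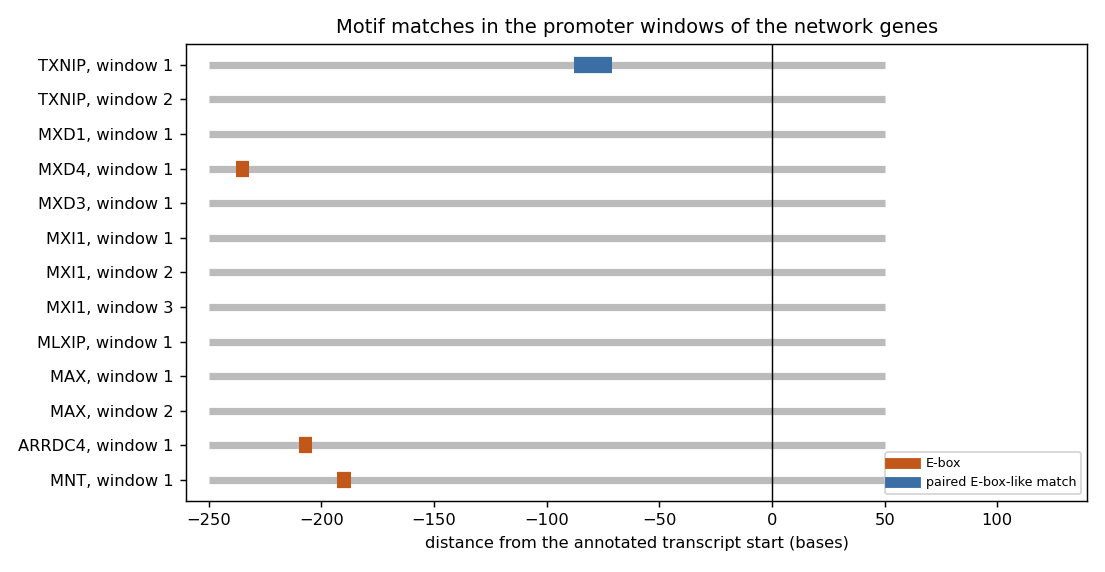
Motif matches in the RefSeq promoter windows of the network genes, plotted by distance from the annotated transcript start in bases, 1 line per window. TXNIP window 1 holds the paired element 88 bases before the start, and MXD4, ARRDC4 and MNT hold an E-box further upstream. MYC had no window and was not searched.

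Among the network's genes, MYC and its antagonist MXD1 rose with the inhibitor, MNT rose by less, and TXNIP fell. Of the 9 tested, 3 rose and 1 fell, and 5 were not called. The called share was 44.4%, where 20.2% of all tested genes were called in either direction, 9.92% upward and 10.3% downward. The downward share of the members, 11.1%, was near that of all genes. The members were chosen with earlier results of these data known, so these shares are descriptive only. The median log2 fold change of the 9 was 0.08, and 0.00 over all tested genes. The groups did not overlap in CPM for 6 of the 9, against 36.3% of all tested genes. The library totals were smaller with the inhibitor, and in libraries thinned to 7644478 counts MYC, MXD1 and TXNIP were still called. In a bulk sample, fewer cells with a transcript and less of it per cell cannot be told apart.

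MYC was at 68.5, 65.1 and 61.6 CPM in the inhibitor libraries and at 38.1, 37.2 and 36.1 CPM in the DMSO libraries. Every inhibitor library lay far above every DMSO library, and the spread within each group was small. The mean rose from 37.1 ± 0.999 (SD, n = 3) to 65.1 ± 3.44 CPM, a log2 fold change of 0.81 ± 0.11 (SE), or 1.75-fold (adjusted p = 1.12e-05). MAX, the partner that MYC and its antagonists share, was at 73.6, 83.3 and 90.6 CPM with the inhibitor and at 73.8, 74.9 and 84.9 CPM with DMSO. The groups overlapped, and the log2 fold change of 0.08 ± 0.11 was not called (adjusted p = 0.645, 95% interval -0.15 to 0.31).

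**Figure D2:**
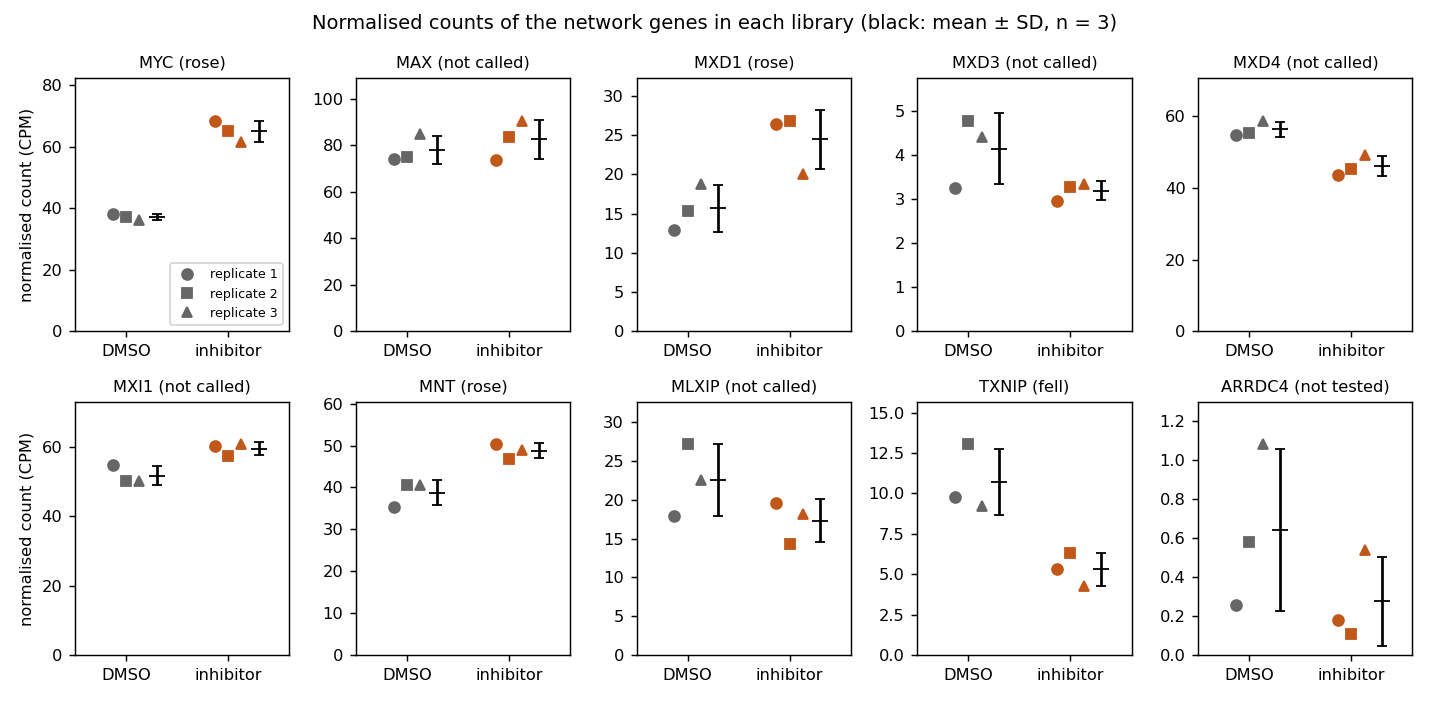
Normalised counts (CPM, linear axes from 0) of the 10 network genes in each library, DMSO in grey and inhibitor in orange, with the mean ± SD of 3 libraries in black. The MYC, MXD1, MXD4, MXI1, MNT and TXNIP groups do not overlap, and those of MAX, MXD3, MLXIP and ARRDC4 do.

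Of the 4 MXD antagonists, MXD1 rose and MXD3, MXD4 and MXI1 were not called. MXD1 was at 26.5, 26.9 and 20.1 CPM with the inhibitor and at 12.9, 15.4 and 18.8 CPM with DMSO. Inhibitor replicate 3 and DMSO replicate 3 came close, but the groups did not overlap. MXD1 rose by 0.66 ± 0.15 on the log2 scale, 1.58-fold (adjusted p = 0.00361). In the GENCODE 29 annotation an exon of MXD1 overlaps one of SNRNP27 on the same strand. SNRNP27 had 993 counts over the 6 libraries, so reads could have been divided between them.

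MXD4, a family member linked to resting and differentiated cells, was at 43.6, 45.4 and 49.2 CPM with the inhibitor and at 54.9, 55.3 and 58.8 CPM with DMSO. All inhibitor libraries lay below all DMSO libraries. The log2 fold change of -0.29 ± 0.11 missed the threshold (adjusted p = 0.0584, 95% interval -0.51 to -0.07). It passed with library totals alone as the scaling (adjusted p = 0.0195) and without inhibitor replicate 3 (0.0411).

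MXI1 was at 60.4, 57.3 and 60.8 CPM with the inhibitor and at 54.9, 50.2 and 50.3 CPM with DMSO. Here the inhibitor libraries were the higher ones, without overlap, and the log2 fold change of 0.20 ± 0.11 was not called (adjusted p = 0.192, 95% interval -0.02 to 0.42). MXD3, a member associated with proliferating cells, was counted 33, 30 and 25 times in the inhibitor libraries and 51, 74 and 53 times in the DMSO libraries. At 3.19 ± 0.205 and 4.14 ± 0.799 CPM the groups overlapped, and the log2 fold change was -0.38 ± 0.23 (adjusted p = 0.268, 95% interval -0.86 to 0.10). Exons of MXD3 overlap PRELID1 on the opposite strand (24869 counts over the 6 libraries) and RAB24 on the same strand (25 counts). MXD3 values are therefore uncertain.

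MNT, a larger MAX partner present in most cells and the main constant antagonist of MYC, was at 50.3, 46.8 and 49.04 CPM with the inhibitor and at 35.3, 40.6 and 40.5 CPM with DMSO. The groups did not overlap, with the nearest libraries at 46.8 and 40.6 CPM. MNT rose by 0.33 ± 0.11 on the log2 scale, 1.26-fold (adjusted p = 0.0379). This call was the least stable of the 4. It was lost in 11 of 16 alternatives, among them the omission of any 1 library (adjusted p from 0.0582 to 0.157) and the replicate block (0.0501), while the log2 fold change stayed between 0.26 and 0.36.

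TXNIP fell furthest of the tested network genes. TXNIP was at 5.29, 6.31 and 4.29 CPM with the inhibitor and at 9.80, 13.04 and 9.23 CPM with DMSO. Each DMSO library lay above each inhibitor library. The mean went from 10.7 ± 2.06 to 5.30 ± 1.01 CPM, a log2 fold change of -1.01 ± 0.19, 2.01-fold lower (adjusted p = 7.45e-04). The counts behind it were 59, 58 and 32 with the inhibitor and 154, 202 and 111 with DMSO.

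ARRDC4, the arrestin gene closest to TXNIP in function, was counted 2, 1 and 4 times in the inhibitor libraries and 4, 9 and 13 times in the DMSO libraries. The mean was 0.275 ± 0.229 and 0.639 ± 0.416 CPM, and the groups overlapped (two-sided exact permutation test, p = 0.2, where 0.1 is the smallest p that 3 against 3 allows). With no filter on low counts the log2 fold change was -1.25 ± 0.71 (adjusted p = 0.258, 95% interval -2.64 to 0.14). A difference of the size seen for TXNIP was therefore not detectable for ARRDC4 with so few counts.

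MLXIP, which encodes MondoA, was at 19.6, 14.3 and 18.2 CPM with the inhibitor and at 18.0, 27.2 and 22.5 CPM with DMSO. DMSO replicate 1 lay among the inhibitor libraries. The log2 fold change of -0.38 ± 0.16 was not called (adjusted p = 0.0933, 95% interval -0.70 to -0.05), but it was called without that library (-0.52, adjusted p = 0.0264), with library totals alone (0.0386) and with no count filter (0.0385).

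**Figure D3:**
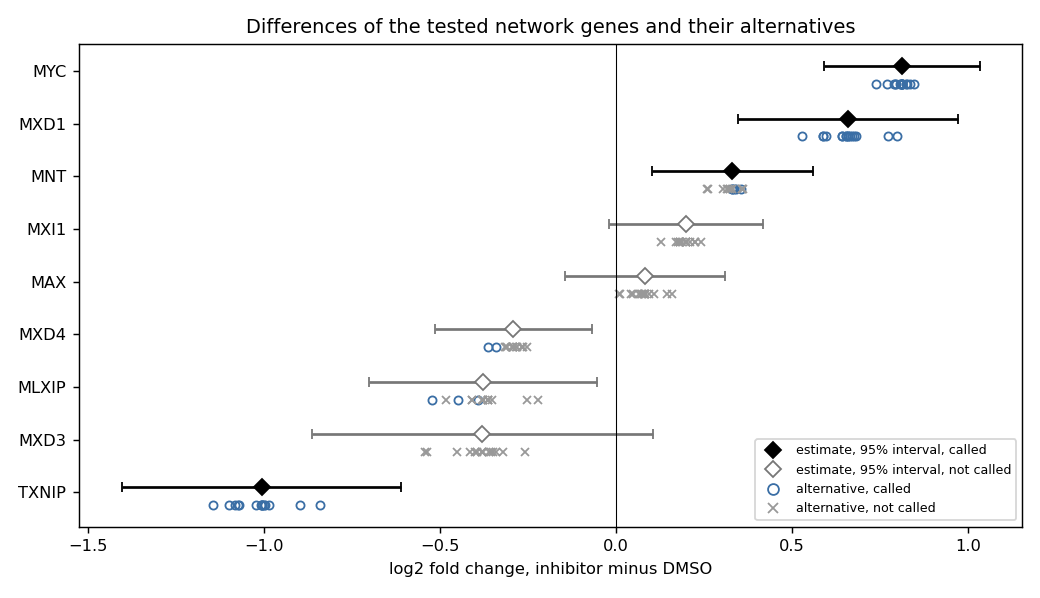
log2 fold changes of the 9 tested network genes, inhibitor minus DMSO, with 95% intervals (diamonds) and the values under each alternative below them (circles called, crosses not called). MYC and MXD1 lie right of 0 and TXNIP left of it with each alternative called, while most alternatives for MNT are not called.

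Counts of the members relative to MYC within each library do not depend on how libraries are scaled. A log2 ratio compares 2 amplified products, so only its difference between groups is read. Of 9 ratios fixed for this purpose, 6 separated the groups completely, each with a two-sided exact permutation p = 0.1, the smallest possible, and adjusted p = 0.15. All 6 have MYC as the denominator, which itself rose by 0.81 on the log2 scale, so they are not separate evidence on the numerators. MXD4 over MYC was -0.65, -0.52 and -0.33 with the inhibitor and 0.53, 0.57 and 0.70 with DMSO. The ratio was lower with the inhibitor by a log2 difference of -1.10, or 2.14-fold. MXI1 over MYC differed by -0.61, MNT over MYC by -0.48 and MAX over MYC by -0.73, each lower in all inhibitor libraries. These 3 differences were smaller than the rise of MYC.

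TXNIP over MYC showed the widest gap, at -3.65, -3.33 and -3.79 with the inhibitor and -1.94, -1.50 and -1.95 with DMSO, a difference of -1.80 or 3.47-fold. MXD3 over MYC differed by -1.15, with the limits on MXD3 given above. MXD1 over MYC overlapped between the groups, with a difference of -0.16 (exact permutation p = 0.4, adjusted p = 0.45). Both genes had risen, and their ratio ranged more widely among the DMSO libraries (-1.55, -1.27 and -0.94). TXNIP over MLXIP also overlapped (-0.62, exact permutation p = 0.2, adjusted p = 0.257). The difference of ARRDC4 over TXNIP was 0.17 (exact permutation p = 0.7, adjusted p = 0.7), and its sign turned without inhibitor replicate 3 (-0.39) or DMSO replicate 1 (-0.15).

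**Figure D4:**
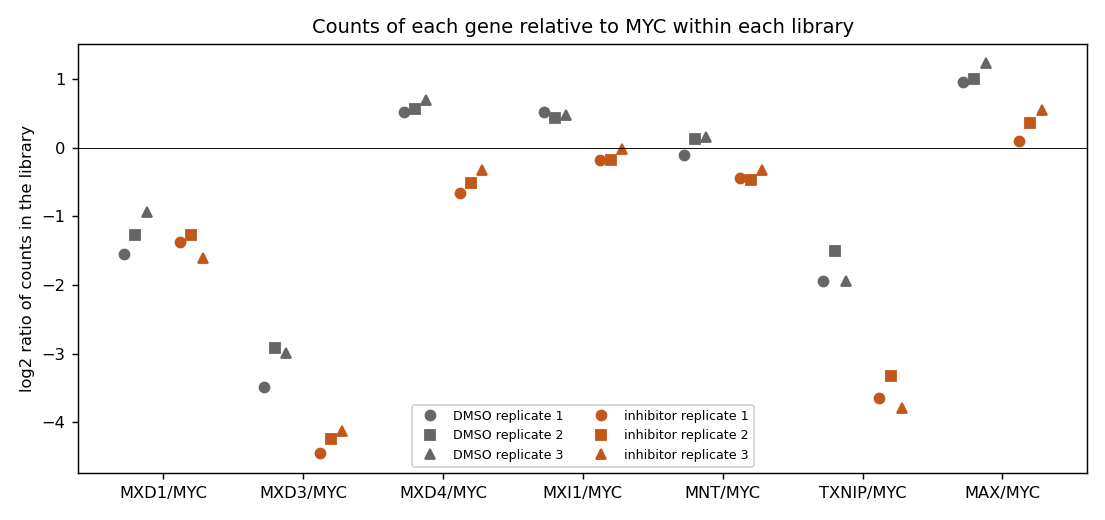
log2 ratios of the counts of 7 network genes to those of MYC within each library, DMSO in grey and inhibitor in orange, 1 symbol per replicate. For MXD1 the groups overlap, and for each other gene all inhibitor libraries lie below all DMSO libraries.

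Other proteins of the network and its corepressors fell or were not called. Of 14 genes listed, 12 were tested and 3 fell, a share of 25% against 10.3% of all tested genes. Of the 12, 0 rose, against 9.92% of all tested genes. In a list this short the upward share does not set it apart. The median log2 fold change was -0.07. The genes that fell were USF1, another E-box-binding factor (-0.57 ± 0.12, from 56.1 ± 2.69 to 38.0 ± 6.29 CPM, adjusted p = 0.00193), the histone deacetylase gene HDAC1 (-0.34 ± 0.11, adjusted p = 0.0305) and MGA, a giant MAX partner (-0.34 ± 0.11, adjusted p = 0.0393). The HDAC1 call was lost without inhibitor replicate 1, DMSO replicate 1 or DMSO replicate 2 (adjusted p from 0.101 to 0.135). The MGA call did not survive the omission of replicate 1 or 2 of either group (0.0694 to 0.177), and was lost with the replicate block (0.0573), in thinned libraries (0.0548), with upper-quartile scaling (0.0559) and in the test against a fold of 1.2 (0.419). Only 1 of the list fell without any one of inhibitor replicate 1, DMSO replicate 1 and DMSO replicate 2. MLX, the partner of MondoA, was at 176 ± 7.49 and 156 ± 12.3 CPM (0.17 ± 0.10, adjusted p = 0.244). No count of MYCN or MLXIPL was found, for which the limit of 3 counts lay between 0.191 and 0.402 CPM by library. That limit holds only if the panel amplifies these genes, which was not tested.

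Genes for MYC cofactors and for the turnover of MYC protein fell more often than they rose. Of 22 tested, 6 fell (27.3%, against 10.3% of all tested genes) and 1 rose (4.55%, against 9.92%), with a median of -0.13. SKP2, a ubiquitin ligase subunit that marks MYC, fell from 64.03 ± 4.04 to 36.4 ± 3.12 CPM (-0.81 ± 0.11, adjusted p = 2.13e-05). WDR5, a chromatin protein that helps to recruit MYC, fell by 0.61 on the log2 scale (adjusted p = 4.54e-04). AURKA, a mitotic kinase that binds MYCN protein, fell by 0.75, and PPP2R5A, a subunit of the phosphatase that dephosphorylates MYC, fell by 0.88 at 7.77 ± 0.56 CPM in DMSO. The gene that rose, named after its value was seen, was ZBTB17, which encodes MIZ1, the factor through which MYC represses genes (0.48 ± 0.11, adjusted p = 0.00447). Without DMSO replicate 1, 2 of these genes rose. FBXW7, the ligase subunit best known for destroying MYC, was at 30.9 ± 6.68 and 29.7 ± 1.80 CPM (0.05 ± 0.13, adjusted p = 0.833).

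Genes that MYC is known to activate in growth were mostly not called, and more fell than rose. Of 49 tested, 12 fell (24.5%, against 10.3% of all tested genes) and 2 rose (4.08%, against 9.92%). The median log2 fold change was -0.07, and 38 of the 49 lay below 0, as did 5652 of all 11391 tested genes. Some of the 38 lay nearer to 0 than the median shift of 0.0236 under upper-quartile scaling, so this count depends on the scaling. GNL3, which encodes the nucleolar protein nucleostemin, fell from 90.7 ± 1.58 to 58.03 ± 2.89 CPM (-0.64 ± 0.10, adjusted p = 1.18e-04). UTP20, a factor of small ribosomal subunit assembly, fell by 0.54 on the log2 scale. The abundant nucleolar genes NPM1 (-0.34 ± 0.10, adjusted p = 0.0151) and NCL (-0.34 ± 0.11, adjusted p = 0.0314), named after their values were seen, fell as well. Other nucleolar genes of the list were not called, among them FBL (-0.06, adjusted p = 0.707), NOP2 (0.02, 0.919) and NOLC1 (-0.06, 0.693), also named after their values were seen. The 2 that rose were SHMT2, a mitochondrial enzyme of serine and glycine metabolism (0.51 ± 0.10, from 117 ± 10.5 to 167 ± 7.63 CPM, adjusted p = 0.00125), and ODC1, the first enzyme of polyamine synthesis (0.45 ± 0.10, adjusted p = 0.00342). Omitting DMSO replicate 2 left 7 that fell, omitting DMSO replicate 3 left 5, and the test against a fold of 1.2 left 1. RefSeq windows were found for 40 of the 49 genes, and 23 of these (57.5%) held an E-box, against 12.9% of tested genes with a window. Genes enter such a list partly because of their E-boxes. Of the 12 that fell, 8 had one, and of the 28 others, 15.

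Of 9 tested genes that MYC is known to repress, 2 rose (22.2%, against 9.92% of all tested genes) and 1 fell (11.1%, against 10.3%), with a median of -0.10. The downward share was near that of all genes. The cell cycle inhibitor gene CDKN1A rose from 195 ± 23.0 to 290.3 ± 40.3 CPM (0.57 ± 0.12, adjusted p = 0.00121). GADD45A, a growth arrest gene, rose by 0.49 ± 0.12, a call lost without DMSO replicate 2 (adjusted p = 0.0548), which left 1 gene of the list that rose. Both are also targets of p53. GAS1, a growth arrest gene of the cell surface, fell by 1.59 on the log2 scale, at 2.92 ± 0.757 CPM in DMSO.

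**Figure D5:**
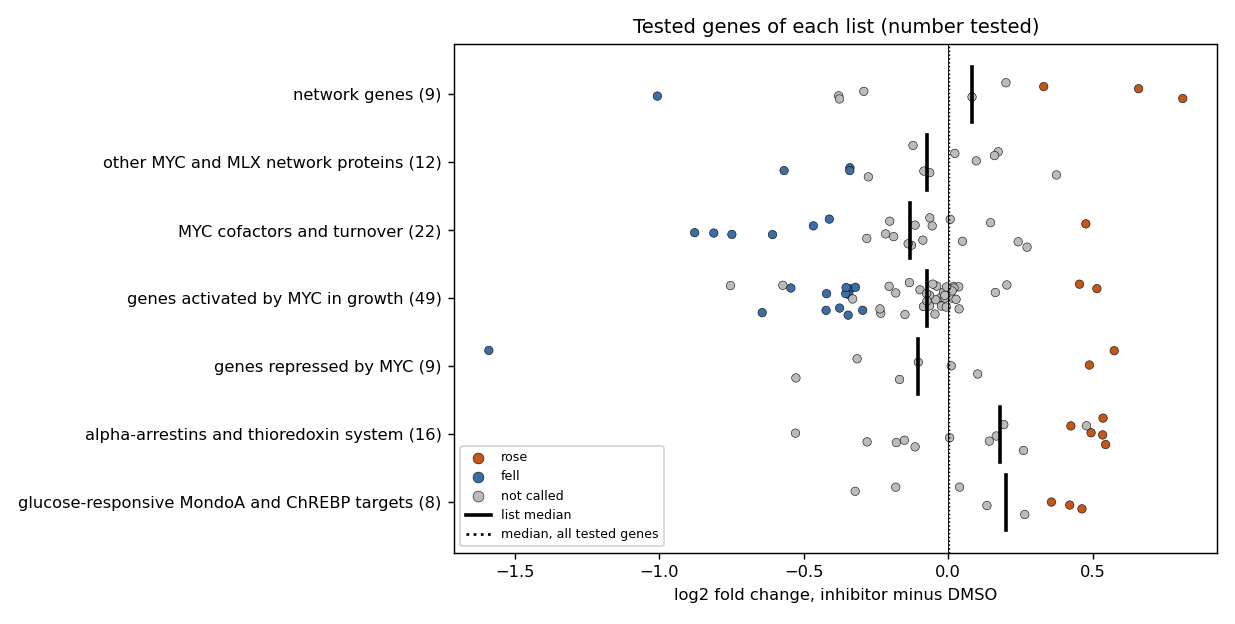
log2 fold changes, inhibitor minus DMSO, of the tested genes of each list, 1 point per gene, orange where the gene rose, blue where it fell and grey where it was not called. Bars mark list medians, and the dotted line is the median of all tested genes. Most called growth genes lie left of 0, and the called genes of the arrestin and glucose-responsive lists lie right of it.

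TXNIP fell while glucose transporter genes rose. Of 16 tested genes for other arrestins, the thioredoxin system and proteins that act with TXNIP, 5 rose (31.2%, against 9.92% of all tested genes) and 0 fell (against 10.3%), with a median of 0.18. SLC2A1 and SLC2A3 encode glucose transporters, of which the SLC2A1 product is held back by TXNIP protein. SLC2A1 rose from 1195 ± 195 to 1730.02 ± 88.6 CPM (0.53 ± 0.11, adjusted p = 0.00185), and SLC2A3 from 62.2 ± 2.84 to 90.1 ± 4.23 CPM (0.54 ± 0.10, adjusted p = 8.38e-04). ARRDC1, another alpha-arrestin gene, rose by 0.49 ± 0.14, in the direction opposite to TXNIP, a call lost without DMSO replicate 2 (adjusted p = 0.066) or DMSO replicate 3 (0.0583). NLRP3, an inflammasome sensor that TXNIP protein binds, rose by 0.54 ± 0.18 with overlapping groups. Its adjusted p was between 0.0867 and 0.187 when inhibitor replicate 1, inhibitor replicate 2, DMSO replicate 2 or DMSO replicate 3 was omitted, 0.0535 with library totals alone and 0.193 in thinned libraries. The last that rose, NEDD4L, a ubiquitin ligase gene, is named after its value was seen (0.42 ± 0.11). Of this list, 3 rose without DMSO replicate 2 and 2 without DMSO replicate 3. TXN, which encodes the thioredoxin that TXNIP binds, was at 422 ± 23.4 and 369 ± 15.1 CPM (0.19 ± 0.10, adjusted p = 0.173).

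The list of genes taken to respond to glucose through MondoA or its relative ChREBP was compiled from general knowledge. Whether each is such a target was not tested. TXNIP, which fell, and ARRDC4 were counted with the members and are not in it. Of 8 tested genes of the list, 3 rose (37.5%, against 9.92% of all tested genes) and 0 fell (against 10.3%), with a median of 0.20. In a list this short the downward share does not set it apart. Those that rose were G6PC3, a glucose-6-phosphatase gene (0.46 ± 0.12, adjusted p = 0.0106), TKFC, a fructose-handling kinase gene (0.42 ± 0.12, adjusted p = 0.0134) and HK2, the first enzyme of glycolysis (0.36 ± 0.11, adjusted p = 0.0291). The G6PC3 call was lost without DMSO replicate 2 (adjusted p = 0.105). The TKFC call was lost without inhibitor replicate 3, DMSO replicate 2 or DMSO replicate 3 (0.0568 to 0.0807). For HK2 the omission of inhibitor replicate 1 or 2, or of DMSO replicate 1 or 3, gave 0.0697 to 0.132, and library totals alone gave 0.0827. Without DMSO replicate 2, or without DMSO replicate 3, 1 gene of the list rose.

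The tested genes whose log2 CPM followed MYC most closely over the 6 libraries were SLFN5 (Pearson r = 0.998, log2 fold change 2.14 ± 0.12), OXLD1 (r = 0.997, 0.80 ± 0.12) and CDK17 (r = 0.997, 1.18 ± 0.10). Those that followed TXNIP were INPPL1 (r = 0.996, -0.33 ± 0.10), DTX3L (r = 0.995, -0.36 ± 0.12) and PPM1A (r = 0.994, -0.37 ± 0.12). The 6 libraries form 2 groups and share their depths across genes, and of 9235 genes compared 302 had r above 0.95 with MYC and 163 with TXNIP. The calls of the 3 genes near TXNIP were each lost without inhibitor replicate 1, without inhibitor replicate 3 or without DMSO replicate 2 (adjusted p from 0.0561 to 0.159), and those of DTX3L and PPM1A also without DMSO replicate 1 (0.0685 and 0.0537).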

How the data were processed

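Libraries were made with a multiplex PCR panel (Ion AmpliSeq Transcriptome) for the Ion Proton sequencer, per the labels' protocols. The authors deposited whole-number counts of reads per gene symbol, without normalization. The submitters' processing notes name HTSeq, DESeq2 1.20.0 and hg19 without their roles. Aligner, annotation and strand setting: not given in the sources used here. No row lacked a gene name. Libraries were treated as replicates on the word of the design text alone. Pairs within a group differed beyond counting noise (chi-square of 9.32 to 14.7 per degree of freedom), as libraries amplified separately from 1 RNA would too. Molecular identifiers are not mentioned, so floors of 3 counts cover counting error of PCR products only.

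The tests were run with edgeR 4.0.16 in R 4.3.3 (filterByExpr, TMM, glmQLFit, glmQLFTest, no covariates, Benjamini-Hochberg over 11391 genes, calls at adjusted p under 0.05). The filter kept 99.924% of counts. SE is the log2 fold change over the root of the F statistic, and the 95% intervals use it. log2 ratios used a prior count of 2. Groups came from the sample titles. The members and the 6 lists were chosen with earlier results of these data known. Named list genes are up to 4 called genes with the largest change per list or, where none was called, 2 with the smallest p, together with the 3 genes of at least 5 CPM most correlated with MYC or TXNIP. MLX, MYCN, MLXIPL, FBXW7 and TXN lie outside this rule and are named for their roles, after their values were seen. Alternatives were other scalings (DESeq2 size factors, upper-quartile, library totals), no filter, a mean of at least 10 CPM, a replicate block, DESeq2 1.42.0, limma 3.58.1 voom, a test against a fold of 1.2, thinning, and each library left out. The procedure was tested on simulated counts of 11311 genes, with 50 genes changed at each size. It recovered 54% of genes changed by 0.5 on the log2 scale and 88% of those changed by 1. Of its 182 calls, 12 were false. A gene that was not called can therefore still have changed by 0.5. The files give no positions, and coordinates belong to the RefSeq windows.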

Additional observations from a re-analysis of the deposited data

How the results depend on the processing

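All 9 tested members kept their direction in every alternative run, and MYC and MXD1 (16 alternatives each) and TXNIP (15, since its mean is under 10 CPM) also kept their calls. The number of genes called was 829 in the test against a fold of 1.2 and from 1405 to 2246 with 1 library left out, the lowest without DMSO replicate 2. The replicate numbers are not said to pair libraries, and same-numbered libraries did not deviate together (correlations from -0.0203 to 0.0353). With a replicate block 2223 genes were called.

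Of the members, 3 fell with library totals alone, 2 with no count filter, 0 with a minimum of 10 CPM, which removes TXNIP, and 1 to 2 with 1 library left out. In the test against a fold of 1.2, 1 gene of the other network proteins fell, 0 cofactor genes rose, 1 growth gene rose and 1 fell, 1 gene repressed by MYC rose, 2 of the arrestin and thioredoxin list rose and 0 glucose-responsive genes rose. With a minimum of 10 CPM, 0 genes repressed by MYC fell. With 1 library left out, 1 to 3 of the other network proteins fell, 1 to 2 cofactor genes rose, 5 to 10 growth genes fell, 1 to 2 genes repressed by MYC rose, 2 to 6 of the arrestin and thioredoxin list rose and 1 to 2 glucose-responsive genes rose. The difference of ARRDC4 over TXNIP was -0.12 with a prior count of 0.5 and from -0.39 to 0.65 with 1 library left out. Where no construction of the alternative shows it, the cause was not tested. Low counts limit ARRDC4 and MXD3 most, with 33 and 266 counts in all.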

Other observations

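Of the thioredoxin genes in the list around TXNIP, some that cultured cells usually express strongly were almost not counted. TXNRD1, which encodes the cytosolic thioredoxin reductase, had means of 0.480 ± 0.105 CPM in the inhibitor libraries and 0.507 ± 0.253 CPM in the DMSO libraries (SD, n = 3). PRDX1, a peroxiredoxin gene, was at 0.281 ± 0.0715 and 0.297 ± 0.0741 CPM. Their relatives TXNRD2 (69.6 ± 5.51 and 62.03 ± 3.61 CPM) and PRDX3 (188 ± 12.5 and 204 ± 14.0 CPM) were counted well. They were picked out once their values had been seen. Whether the panel amplifies them was not tested. The same doubt holds for the low counts of ARRDC4 and for the lack of counts of MYCN and MLXIPL.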
